A study of Mus musculus with 12 samples.

Results

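The 10 genes described here are *Atf4* and 9 of its known targets, *Ddit3*, *Trib3*, *Chac1*, *Sesn2*, *Asns*, *Phgdh*, *Psat1*, *Shmt2*, and *Mthfd2*, which together report on the integrated stress response. They were chosen by name and found by symbol among the 47643 genes of the table. All 10 were found, and 9 had a mean of at least 1 TPM over the 12 libraries and entered the test. *Chac1* was below that mean and was not tested. TPM are reads per unit of gene length, set to a common sum for all libraries.

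The integrated stress response starts with kinases that phosphorylate the translation factor eIF2 when amino acids run short, proteins misfold, heme is lacking, or double-stranded RNA is present. Phosphorylated eIF2 slows most translation but lets the mRNA of ATF4 be translated through its upstream open reading frames, so ATF4 protein can rise without a change in *Atf4* RNA. ATF4 then induces genes of amino acid synthesis, transport, and tRNA charging, as well as regulators of survival and a phosphatase subunit that ends the response. Doxycycline inhibits translation in mitochondria, and defects of mitochondria are among the known triggers of the response.

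The libraries came from common lymphoid progenitors (CLPs), bone marrow cells that give rise to lymphocytes, sorted as Lin- Sca1lo cKitlo IL7Rα+ cells from male mice 27 to 32 weeks old. *Firre* is a long noncoding RNA gene on the X chromosome, and the study asked whether *Firre* RNA supplied from a transgene restores what deletion of the locus changes. There were 4 WT libraries, 4 ∆*Firre* libraries (labelled KO) from mice that lack the whole *Firre* locus, and 4 *Firre* rescue libraries. The rescue mice carried the same deletion, a *Firre* transgene under a tetracycline-responsive promoter, and the rtTA3 activator driven by the broadly active CAG promoter, and were fed doxycycline. The paper describes the doxycycline diet for the rescue mice among the groups used here. The methods give regular chow as the general diet and name doxycycline chow only for mice bred to carry the transgene. Transgenic *Firre* RNA, the rtTA3 activator, and doxycycline feeding therefore cannot be told apart in any comparison with the rescue mice. Each library came from 1 mouse, and libraries are named by group and mouse number.

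*Firre* was at 25.2 to 31.6 TPM in WT, at 0 in the 4 ∆*Firre* libraries, and at 59.9 to 174 TPM in rescue, as the labels have it. Reads recovered from the TPM values numbered 10990152 to 18173927 per WT library, 14371106 to 17597061 per ∆*Firre* library, and 25781349 to 32571542 per rescue library. The rescue libraries also carry a separate run of library numbers, and what these numbers mark is not given, so group, depth, and number run cannot be told apart there. Across the genes tested, the log2 fold change had a Spearman correlation with the GC content of the exons of -0.36 for ∆*Firre* against WT, 0.45 for rescue against ∆*Firre*, and 0.32 for rescue against WT. The median log2 fold change of all genes tested was -0.058, -0.16, and -0.21 in these comparisons. Rescaling by the median ratio between libraries moved it to 0.0075, -0.050, and -0.031. Fold changes below are from TPM as deposited, on the log2(TPM + 1) scale, which understates changes of low genes.

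The members spanned a wide range of levels per unit of gene length. *Atf4*, the transcription factor itself, was highest, with a mean of 261 TPM over the 12 libraries, above 96.7% of the genes tested. It was followed by *Phgdh* at 246 TPM and *Shmt2* at 138 TPM, whose ranges over the libraries overlapped with that of their neighbor in this order. *Psat1* came next at 67.8 TPM, and its lowest library, at 58.9 TPM, was above the highest library of *Mthfd2*, at 34.9 TPM. *Mthfd2*, *Ddit3*, *Asns*, *Sesn2*, and *Trib3* followed at 25.9, 19.8, 9.10, 4.98, and 1.85 TPM, each with a range that overlapped the next. *Chac1* was lowest at 0.653 TPM. *Phgdh* and *Shmt2* were therefore among the abundant RNAs of these libraries, and *Mthfd2* was above 56.4% of the genes tested. *Chac1* and *Trib3*, which are induced strongly in stressed cells, were the lowest of the members.

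**Figure D1:**
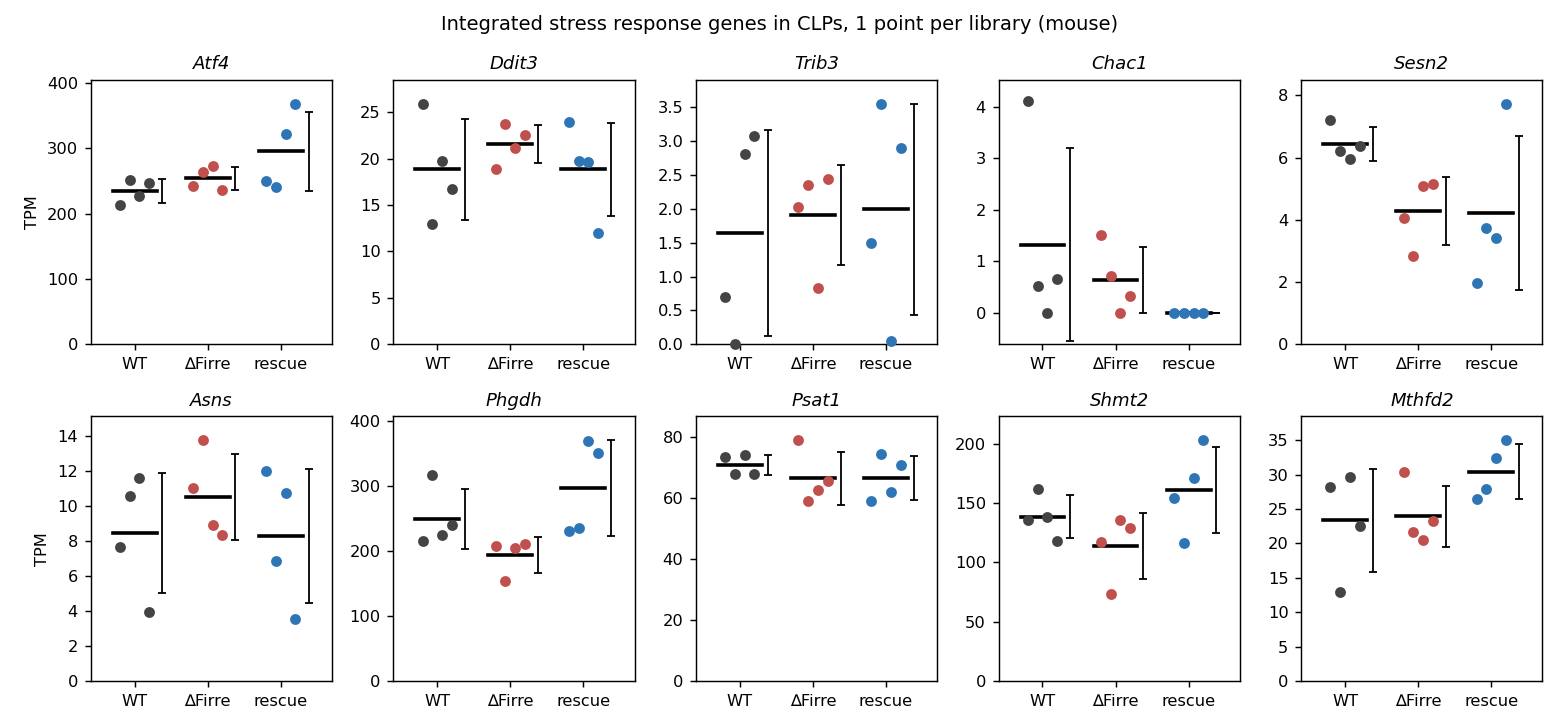
TPM of the 10 genes in each library, with 1 panel per gene, 4 points per group (each a mouse, in the order of mouse number), the group mean as a black line, and the SD as a bar to its right. Each axis has its own scale. The rescue points of *Phgdh* lie above all ∆*Firre* points, those of *Sesn2* in WT lie above all ∆*Firre* points, and *Chac1* is at 0 in the 4 rescue libraries.

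ATF4 binds, with a C/EBP partner, an element whose core can be written TGATGNAA. This core was searched on both strands of the 300-base promoters of RefSeq (GRCm38.p6, 250 bases before to 50 after the start site), where all 10 genes had an entry. It was found in 3 of the 10, *Chac1*, *Trib3*, and *Asns*, and in 3.97% of all 32851 promoters searched. The 60 bases around each match are shown so that the RNA of these 3 genes can be read beside it. The sequence is that of the gene's strand, and capitals mark the match, which appears as the reverse complement of the core in *Chac1* and *Trib3*, where the core lies on the opposite strand.
*Chac1*, chr2:119351023-119351082, plus strand: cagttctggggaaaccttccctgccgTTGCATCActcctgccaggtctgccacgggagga
*Trib3*, chr2:152344013-152344072, minus strand: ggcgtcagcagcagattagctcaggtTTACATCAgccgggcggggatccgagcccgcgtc
*Asns*, chr6:7693199-7693258, minus strand: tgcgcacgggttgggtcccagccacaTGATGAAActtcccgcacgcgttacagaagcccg
The match starts 193 bases before the start site in *Chac1*, at base 15 after it in *Trib3*, and 23 bases before it in *Asns*. A match is a match of letters and does not show binding, and the 7 genes without one may hold the element outside the windows searched. *Psat1* has 2 entries, and the entry of *Mthfd2* lies inside the gene as annotated.

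Deletion of *Firre* was first compared with WT. None of the 9 members tested was called, that is, none had a limma adjusted p of 0.1 or less (Benjamini-Hochberg over all 14479 genes), in a comparison in which 0.0207% of all genes tested were called. None had an unadjusted p under 0.05 either, against 767 of all genes (5.3%), and limma-voom on the recovered reads called none of them. *Sesn2*, a leucine sensor that restrains the growth kinase mTORC1, was at 7.20, 6.22, 5.95, and 6.38 TPM in WT mice 6, 8, 10, and 11. It was at 4.07, 2.83, 5.10, and 5.14 TPM in ∆*Firre* mice 8, 9, 11, and 12. The groups did not overlap, and the log2 fold change was -0.52 (SE 0.31) with an adjusted p of 0.956. *Phgdh*, the first enzyme of serine synthesis, was the other member whose groups did not overlap, with all WT libraries at 215 TPM or more and all ∆*Firre* libraries at 211 TPM or less. Its log2 fold change was -0.35 (SE 0.18), with the lowest unadjusted p of the members, 0.0704. Across all genes tested, 5.33% had groups that did not overlap in this comparison. *Atf4* averaged 235 ± 17.95 TPM over WT mice and 254 ± 17.2 TPM over ∆*Firre* mice (SD, n = 4), a fold change of 1.08 with a 95% interval of 0.896 to 1.31. The intervals of the other members were wider for low genes and reached from 0.540 to 2.89 for *Trib3*.

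The rescue mice were then compared with ∆*Firre* mice. Of the 9 members tested, 2 rose, *Phgdh* and *Shmt2*, none fell, and 7 did not pass the test. Over all genes tested 27.9% were called, 8.58% as higher and 19.3% as lower in rescue. The split between higher and lower calls depends on the scaling. Of the called genes 30.7% were higher in rescue with TPM as deposited and 50.5% after rescaling by the median ratio. The median of the members was a log2 fold change of 0.0035, with 5 above and 4 below 0, against -0.16 for all genes tested.

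*Phgdh* (chr3:98313171-98339969 in GRCm38) was at 208, 153, 204, and 211 TPM in ∆*Firre* mice 8, 9, 11, and 12, and at 231, 234, 368, and 350 TPM in rescue mice 1 to 4. All rescue libraries were above all ∆*Firre* libraries, and rescue mice 3 and 4 stood above 1 and 2. Groups did not overlap for 21.9% of all genes tested. The fold change was 1.50 (95% interval 1.15 to 1.96), with a log2 fold change of 0.58 (SE 0.18) and a limma adjusted p of 0.0382. The WT libraries, at 215, 316, 224, and 239 TPM, overlapped the rescue libraries and lay above all ∆*Firre* libraries. The same ∆*Firre* libraries enter the comparison with WT, in which *Phgdh* was not called (limma adjusted p = 0.929). *Shmt2*, the mitochondrial enzyme that turns serine into glycine and a folate-bound carbon unit, lies at chr10:127517123-127522444. It was at 117, 73.5, 136, and 128 TPM in ∆*Firre* and at 154, 116, 171, and 203 TPM in rescue. Here the groups overlapped, through rescue mouse 2, and the fold change was 1.42 (95% interval 1.06 to 1.92) with a log2 fold change of 0.51 (SE 0.20) and a limma adjusted p of 0.0918.

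Both calls leaned on single libraries. ∆*Firre* mouse 9 was lowest of its group for both genes. Without it *Phgdh* had a log2 fold change of 0.47 with an adjusted p of 0.112 and *Shmt2* one of 0.31 with an adjusted p of 0.238. Without rescue mouse 4 the adjusted p was 0.107 for *Phgdh* and 0.230 for *Shmt2*. Leaving out ∆*Firre* mouse 8 or 12 or rescue mouse 1 or 3 also ended the call of *Shmt2*, with adjusted p between 0.104 and 0.159. Both genes have GC-rich exons, 56.4% for *Phgdh* and 57.4% for *Shmt2*, above 86.0% and 90.0% of the genes tested. When each library was corrected for the GC content of the exons, the log2 fold changes were 0.29 (adjusted p = 0.249) and 0.14 (adjusted p = 0.646), and neither was called.

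**Figure D2:**
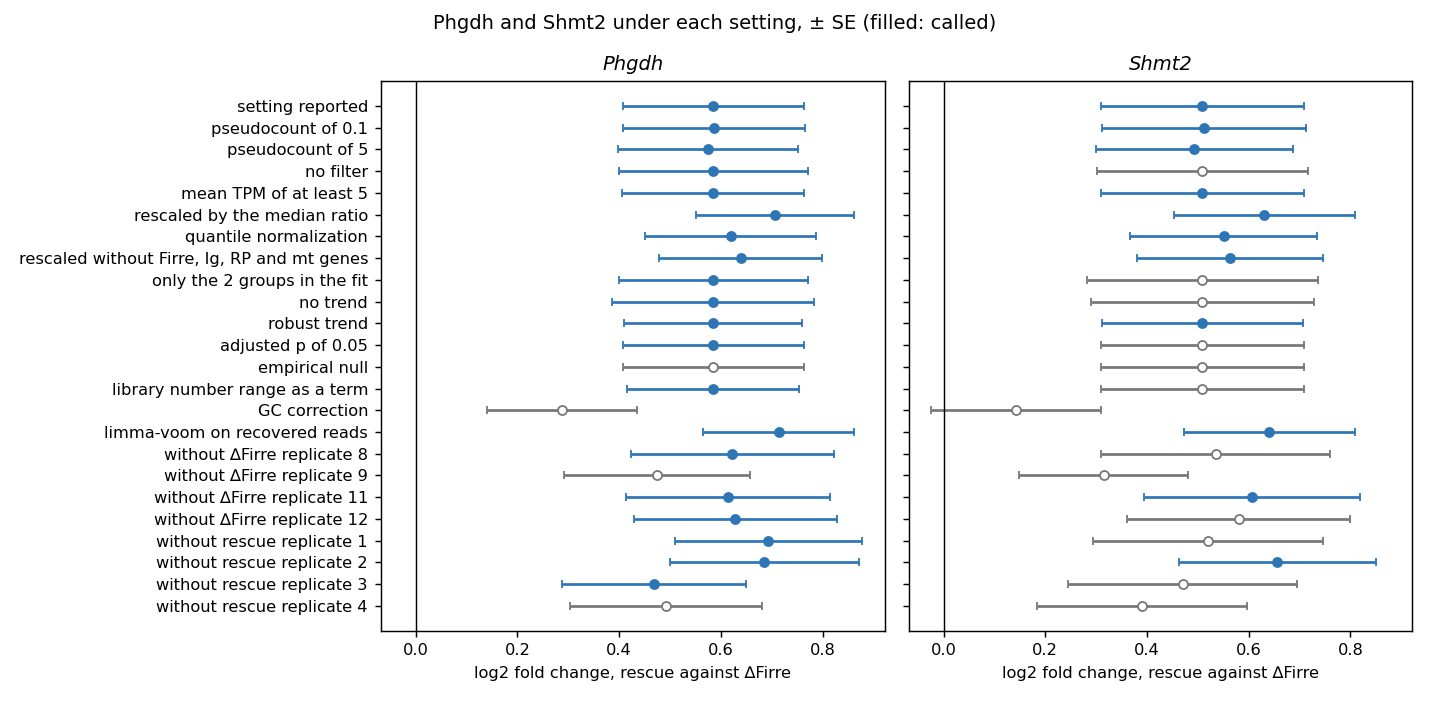
Log2 fold change of *Phgdh* and *Shmt2* for rescue against ∆*Firre* under the setting reported and each alternative, with the SE as bars and filled points where the gene was called. All points lie above 0, *Phgdh* is uncalled under 4 of the 23 alternatives and *Shmt2* under 13, and the correction for GC content gives the lowest values, 0.29 and 0.14.

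*Psat1*, *Mthfd2*, and *Asns* did not pass the test, and their difference from *Phgdh* and *Shmt2* was not tested. *Psat1*, the aminotransferase that follows *Phgdh* in serine synthesis, was at 66.4 ± 8.64 TPM in ∆*Firre* and 66.4 ± 7.25 TPM in rescue (SD, n = 4), a log2 fold change of 0.0035 (SE 0.11) and an interval of the fold change of 0.851 to 1.18. *Mthfd2*, which acts after *Shmt2* in the mitochondrial folate cycle, was at 30.4, 21.6, 20.4, and 23.2 TPM in ∆*Firre* and at 26.4, 28.0, 32.4, and 34.9 TPM in rescue. Its fold change was 1.27 with an interval of 0.901 to 1.78 (adjusted p = 0.315), and only ∆*Firre* mouse 8 overlapped the rescue range. It was called with limma-voom on the recovered reads, at a log2 fold change of 0.48 and an adjusted p of 0.0932. *Asns*, asparagine synthetase, was at 11.02, 13.8, 8.93, and 8.36 TPM in ∆*Firre* and at 12.04, 6.89, 10.7, and 3.57 TPM in rescue. The rescue mice lay between 3.57 and 12.04 TPM, with 2 of them below all ∆*Firre* mice and none above the highest, and with a log2 fold change of -0.39 (SE 0.36).

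The regulators of the response gave no call in this comparison. *Atf4* was at 243, 263, 273, and 237 TPM in ∆*Firre* and at 249, 241, 322, and 368 TPM in rescue. Rescue mice 3 and 4 exceeded all ∆*Firre* mice and mice 1 and 2 did not, and the fold change was 1.14 with an interval of 0.948 to 1.38 (adjusted p = 0.297). Rescaling by the median ratio gave a log2 fold change of 0.32 with an adjusted p of 0.0621, and limma-voom gave 0.32 with 0.0597. *Ddit3*, which encodes the cell death regulator CHOP, was at 18.9 to 23.7 TPM in ∆*Firre* and at 24.0, 19.7, 19.6, and 12.02 TPM in rescue. Its fold change was 0.858 with an interval of 0.612 to 1.20. *Ddit3* overlaps *Mars1* and *Mbd6* in GRCm38, and these genes were at 43.4 to 82.7 and 23.3 to 42.6 TPM over the 12 libraries, so reads in shared parts could not be assigned if counting ignored strand. *Sesn2* was at 1.95, 3.74, 3.43, and 7.73 TPM in rescue, a range that took in that of ∆*Firre* (log2 fold change -0.11, SE 0.31).

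*Trib3*, a pseudokinase that feeds back on ATF4, and *Chac1*, an enzyme that degrades glutathione, gave few reads. *Trib3* had 21, 30, 9, and 29 reads in ∆*Firre* and 29, 84, 1, and 58 reads in rescue. In TPM this was 0.834 to 2.44 in ∆*Firre* and 0.0445 to 3.55 in rescue, and the interval of the fold change ran from 0.398 to 2.13. *Chac1* had 32, 3, 0, and 5 reads in WT, 12, 7, 0, and 3 reads in ∆*Firre*, and 0 reads in the 4 rescue libraries. At the depth of the rescue libraries, 3 reads, the limit that a count of 0 allows for counting error, would be 0.164 to 0.201 TPM. WT mouse 10 and ∆*Firre* mouse 11 were also at 0, so the groups overlapped. When genes were not filtered, *Chac1* had a log2 fold change of -0.63 (SE 0.43) with an adjusted p of 0.469. Of the 3 members with the core printed above, *Chac1* was below the filter, and *Trib3* and *Asns* were not called in rescue against ∆*Firre*. Over all genes tested 27.9% were called. For *Trib3* quantile normalization turned the log2 fold change from -0.12 to 0.64, and leaving out 1 library moved it between -0.39 and 0.32.

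**Figure D3:**
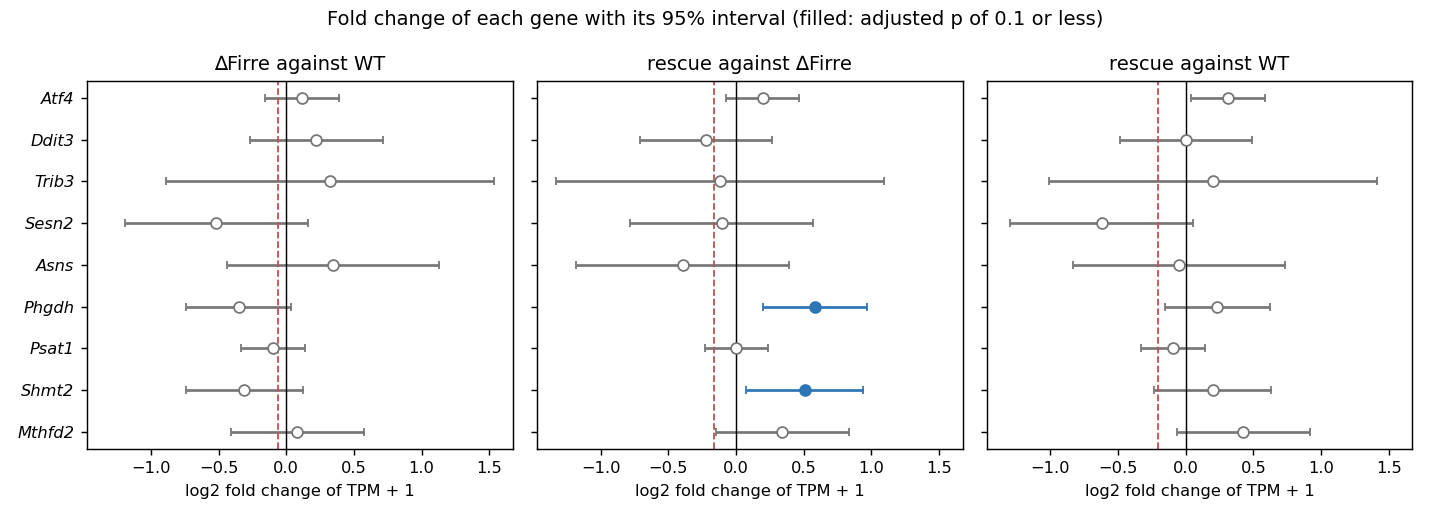
Log2 fold change of TPM + 1 for the 9 genes tested, with 95% intervals, in the 3 comparisons. Filled points passed the test, the black line is 0, and the dashed line is the median of all genes tested. The filled points are *Phgdh* and *Shmt2* in rescue against ∆*Firre*, and the interval of *Trib3* is the widest in each panel.

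Against WT, none of the 9 members was called in the rescue mice, where 24.3% of all genes tested were called, 4.82% as higher and 19.4% as lower. Of the called genes 19.9% were higher with TPM as deposited and 51.2% after rescaling by the median ratio. *Atf4* alone had an unadjusted p under 0.05, against 31.3% of all genes. Limma-voom called 3 members, *Phgdh*, *Mthfd2*, and *Atf4*, and 18.6% of all genes. *Atf4* was at 213, 252, 226, and 247 TPM in WT, and rescue mice 3 and 4 exceeded all of these while mice 1 and 2 did not. The fold change was 1.24 (95% interval 1.03 to 1.498), with a log2 fold change of 0.31 (SE 0.13) and a limma adjusted p of 0.111. The call depended on the scaling. The adjusted p was 0.0117 after rescaling by the median ratio (log2 fold change 0.50), 0.0567 after quantile normalization, and 0.0112 with limma-voom. Without rescue mouse 1 or 2 it was 0.0728 or 0.0510. *Mthfd2* had a fold change of 1.34 (interval 0.955 to 1.89) and *Sesn2* one of 0.650 (interval 0.407 to 1.04). *Sesn2* passed the threshold after the correction for GC content, with a log2 fold change of -0.90 and an adjusted p of 0.0535, and without rescue mouse 4, with an adjusted p of 0.04998. *Phgdh*, at 1.18-fold (0.899 to 1.54), and *Shmt2*, at 1.15-fold (0.851 to 1.55), did not pass the test. Both comparisons with the rescue mice use the same 4 rescue libraries. No member had groups that did not overlap, against 18.0% of all genes tested.

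Among the genes that act on eIF2 itself, 1 stood out in the rescue mice. *Ppp1r15a* (GADD34), the inducible subunit that brings a phosphatase to eIF2 and ends the response, was at 11.3, 11.8, 12.3, and 10.8 TPM in WT and at 7.21, 15.01, 15.4, and 11.6 TPM in ∆*Firre*. It was at 72.6, 49.4, 84.6, and 56.6 TPM in rescue, above all other libraries. The fold change was 5.09 against ∆*Firre* (95% interval 3.64 to 7.13, adjusted p = 6.83e-05) and 5.21 against WT (3.72 to 7.30, adjusted p = 9.15e-05). Leaving out any 1 library kept the log2 fold change against ∆*Firre* between 2.13 and 2.47, and the correction for GC content gave 2.09 (adjusted p = 9.77e-05). ∆*Firre* against WT gave a log2 fold change of 0.034 (SE 0.22). *Ppp1r15a* overlaps *Tulp2* in GRCm38, which was at 0 in the 12 libraries, and its promoter held no TGATGNAA. *Ppp1r15b*, the constitutive counterpart, fell from 103 ± 2.99 TPM in ∆*Firre* to 71.2 ± 8.71 TPM in rescue (SD, n = 4, adjusted p = 0.00505). *Dnajc3*, an inhibitor of eIF2 kinases, fell from 133 ± 10.3 to 99.0 ± 3.32 TPM (adjusted p = 0.00342). Relative to the median of all genes tested, these falls were -0.37 and -0.26 on the log2 scale.

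**Figure D4:**
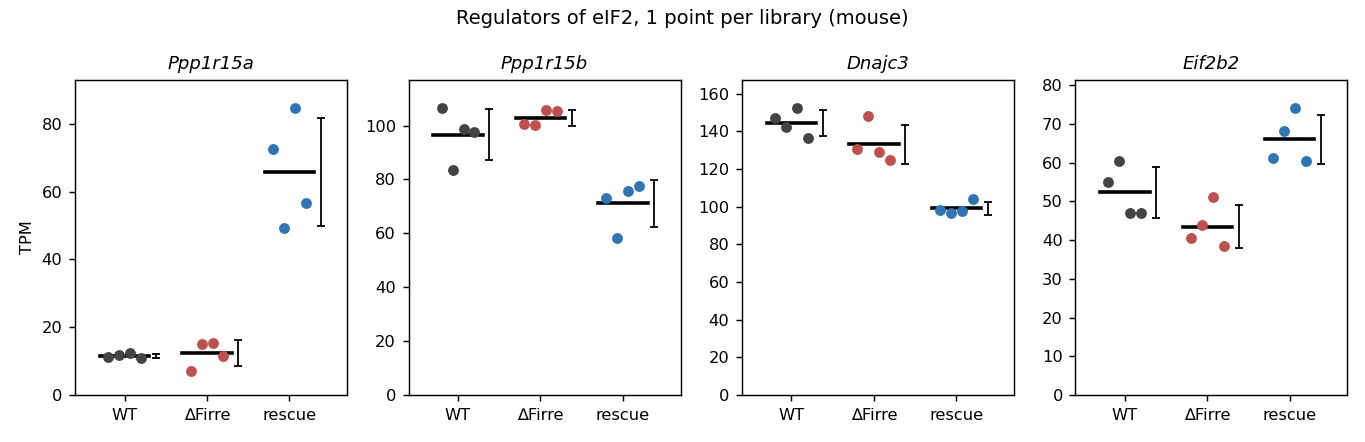
TPM of *Ppp1r15a*, *Ppp1r15b*, *Dnajc3*, and *Eif2b2* in each library, with 4 points per group, the group mean as a black line, and the SD as a bar. *Ppp1r15a* and *Eif2b2* lie higher in the 4 rescue libraries than in any other library, and *Ppp1r15b* and *Dnajc3* lie lower. For *Eif2b2* the margin is narrow, with the lowest rescue library at 60.4 TPM and the highest WT library at 60.3 TPM.

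The 4 eIF2 kinases were all detected, and none was called in rescue against ∆*Firre* by limma or by limma-voom, although 2 had an unadjusted p under 0.05, as did 33.6% of all genes. *Eif2ak2* (PKR), the highest, was at 68.5 ± 4.72 TPM in ∆*Firre* and 49.9 ± 21.6 TPM in rescue (SD, n = 4, as for the means that follow). Against WT, *Eif2ak4* (GCN2), the sensor of uncharged tRNA, fell from 25.1 ± 2.52 to 19.6 ± 2.48 TPM (adjusted p = 0.0921), a call that limma-voom did not give (adjusted p = 0.421). Of the 9 subunits of eIF2 and its exchange factor eIF2B, *Eif2b2* rose and *Eif2s1*, *Eif2s3y*, and *Eif2b1* fell in rescue against ∆*Firre*. *Eif2b2* went from 43.5 ± 5.52 to 66.0 ± 6.40 TPM (log2 fold change 0.59, adjusted p = 0.00635). *Eif2s3y* went from 104 ± 11.4 to 71.1 ± 10.9 TPM (adjusted p = 0.0107), and its reads may be split with its close copy *Eif2s3x*, the highest subunit at a mean of 187 TPM over 12 libraries. *Eif2s1* had a log2 fold change of -0.23, close to the median of all genes, and 0.052 after the correction for GC content. Against WT, *Eif2b2* rose, and *Eif2s2* and *Eif2s3y* fell. This call of *Eif2b2* was lost under 11 of 23 alternatives, among them the correction for GC content (log2 fold change 0.23, limma adjusted p = 0.232). Limma-voom kept it (adjusted p = 0.0237). The calls of *Eif2b1* against ∆*Firre* (adjusted p = 0.217) and *Eif2s2* against WT (adjusted p = 0.492) were lost with limma-voom, as was that of *Eif2s1* (adjusted p = 0.496).

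The remaining lists of the pathway gave calls in both directions. Over all 75 genes of the 12 lists that were tested, 7 were higher and 15 lower in rescue against ∆*Firre*, 29.3% in all against 27.9% of all genes. Against WT, 3 were higher and 17 lower, 26.7% against 24.3%. In ∆*Firre* against WT none of the 75 was called by limma or limma-voom, and 4 had an unadjusted p under 0.05. The share of list genes called was thus close to that of all genes in both comparisons with rescue. With libraries corrected for exon GC, 2001 of 13086 genes were called against ∆*Firre* and 2434 against WT. Without the correction 4043 and 3512 of 14479 were. Of the 22 list genes called against ∆*Firre*, 8 were still called, *Ppp1r15a*, *Ppp1r15b*, *Eif2b2*, *Slc3a2*, *Pck2*, *Hspe1*, *Trib1*, and *Trib2*. Against WT 9 of the 20 were, *Ppp1r15a*, *Ppp1r15b*, *Dnajc3*, *Ddit4*, *Slc3a2*, *Slc6a9*, *Nars*, *Trib2*, and *Sesn1*. The other calls of the lists in each comparison were lost under the correction. Some of these folds stayed about as large, with log2 fold changes from -0.39 to -0.32 for *Eif2b1* against ∆*Firre* and -0.34 to -0.32 for *Eif2ak4* against WT. Others shrank against ∆*Firre*, from -0.44 to -0.085 for *Yme1l1*, 0.77 to 0.21 for *Vars*, 0.56 to 0.24 for *Clpp*, and -0.42 to -0.20 for *Dnajc3*. Limma-voom called 17 of the 22 and 13 of the 20, and over all list genes it called 12 higher and 11 lower against ∆*Firre* and 7 higher and 10 lower against WT. Over all genes it called 28.4% against ∆*Firre* and 18.6% against WT, and 45.6% and 44.7% of these calls were higher in rescue. *Eif4ebp1*, a target of ATF4 that blocks cap-dependent translation, rose from 28.1 ± 6.57 to 51.6 ± 15.5 TPM against ∆*Firre* (log2 fold change 0.83, adjusted p = 0.0236), and WT was at 47.3 ± 11.5 TPM. *Ddit4*, which restrains mTORC1, was lower against WT, at 16.96 ± 5.03 against 40.3 ± 22.7 TPM (adjusted p = 0.0743). The groups overlapped, WT mouse 6 alone was at 71.0 TPM, and limma-voom did not call *Ddit4* (adjusted p = 0.158). *Pck2*, mitochondrial phosphoenolpyruvate carboxykinase and the only called gene of 5 tested among other amino acid enzymes, went from 80.8 ± 4.09 to 119 ± 22.4 TPM (adjusted p = 0.0339).

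Amino acid transporters had no call upward. *Slc38a2* (SNAT2), the highest of the 7 tested, fell from 323 ± 20.8 to 231 ± 36.1 TPM against ∆*Firre* (adjusted p = 0.00788), and *Slc3a2*, the heavy chain of CD98, fell from 60.8 ± 2.65 to 40.99 ± 4.54 TPM (adjusted p = 0.0178). Both also fell against WT, together with *Slc6a9*, a glycine transporter (3.11 ± 1.67 in WT and 0.630 ± 0.677 TPM in rescue, adjusted p = 0.0410). Of the 5 tested among serine, glycine, and folate enzymes outside the 10 genes, none was called in either comparison or had an unadjusted p under 0.05, although limma-voom called *Mthfd1* as higher against ∆*Firre* (adjusted p = 0.0885). *Mthfd1*, the highest, was at 79.4 ± 12.9 TPM in ∆*Firre* and 91.8 ± 18.03 TPM in rescue. Of the 13 synthetases and export factors for tRNA that ATF4 is known to induce, *Eprs*, *Lars*, and *Nars* fell in both comparisons, by log2 fold changes of -0.35, -0.36, and -0.26 against ∆*Firre*, and none rose by limma. Limma-voom called none of these 3 falls in either comparison, and called *Sars* as higher against ∆*Firre* (log2 fold change 0.38, adjusted p = 0.0473). *Vars* was the only gene of 8 other cytosolic synthetases that limma called against ∆*Firre*, and it rose (84.6 ± 11.2 to 147 ± 34.4 TPM, adjusted p = 0.00490), while *Kars*, the highest, was at 221 ± 32.96 and 238 ± 32.8 TPM. Limma-voom also called *Farsa* as higher (log2 fold change 0.30, adjusted p = 0.0906).

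Doxycycline acts on mitochondria, so chaperones and proteases of that organelle were read beside the members. Of 9 tested, *Clpp*, the matrix protease (43.8 ± 7.80 to 64.6 ± 8.35 TPM, adjusted p = 0.0154), and *Hspe1*, the chaperonin HSP10 (248 ± 44.9 to 324 ± 33.3 TPM, adjusted p = 0.0635), rose against ∆*Firre*, and *Yme1l1*, a protease of the inner membrane, fell (85.2 ± 2.82 to 62.9 ± 7.36 TPM, adjusted p = 0.00866). Limma-voom also called *Lonp1*, another matrix protease, as higher (log2 fold change 0.39, adjusted p = 0.0340). Against WT, *Hspd1*, the partner HSP60, fell (509 ± 52.2 to 405 ± 31.1 TPM, adjusted p = 0.0695), as did *Yme1l1*, and none rose by limma. Limma-voom did not call *Hspd1* (adjusted p = 0.419) and called *Hspe1* (adjusted p = 0.0775) and *Clpp* (adjusted p = 0.0499) as higher against WT. Of 6 family relatives of the members, *Trib1*, *Trib2*, *Sesn1*, and *Atf2* fell against ∆*Firre*. *Sesn1*, the most abundant relative, went from 197 ± 8.74 to 143 ± 17.98 TPM (adjusted p = 0.0184). None of 3 tested partners of ATF4 was called by limma or limma-voom in either comparison with rescue, although 1 had an unadjusted p under 0.05 in each. *Cebpg*, the highest of them, was at 66.8 ± 8.45 TPM in ∆*Firre* and 52.8 ± 10.03 TPM in rescue. The secreted stress signal *Fgf21* was at 0 TPM in the 12 libraries, *Gdf15* and *Stc2* had 1 read each in all, and *Atf3*, a direct target of ATF4, had 3, 11, and 5 reads in WT, ∆*Firre*, and rescue. *Nupr1* had 19, 23, and 0 reads.

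**Figure D5:**
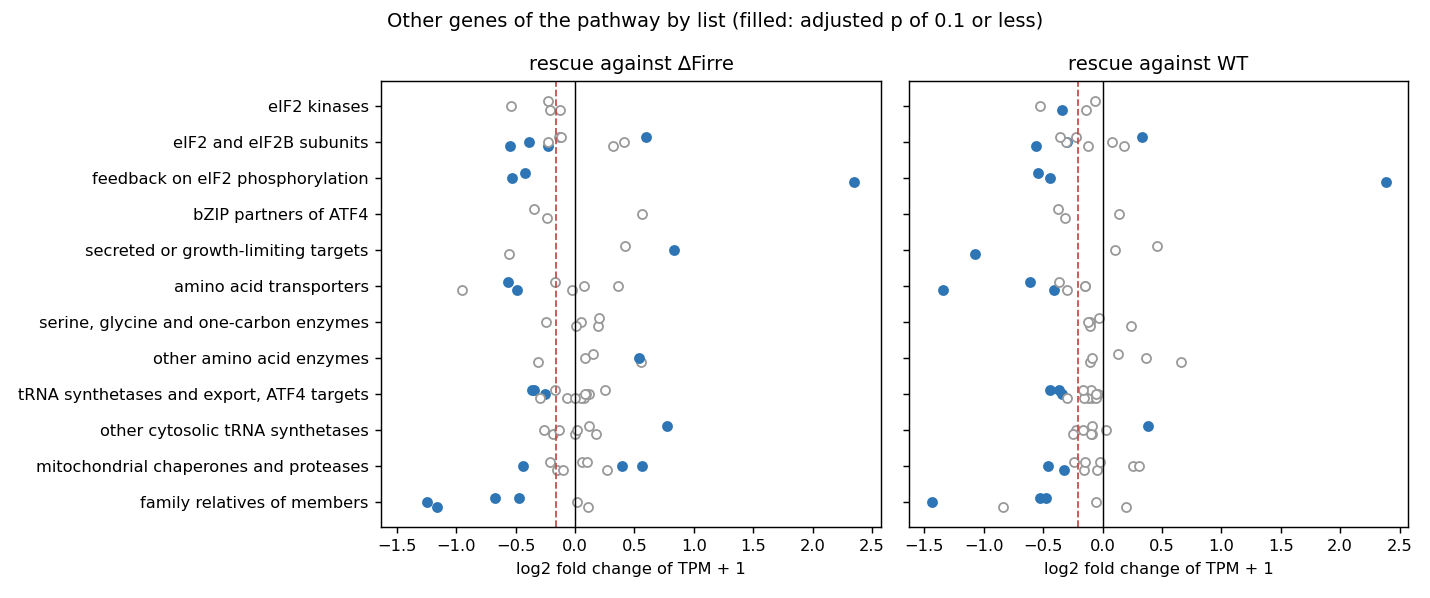
Log2 fold change of TPM + 1 for the 75 other genes of the pathway that were tested, by list, for rescue against ∆*Firre* and against WT. Filled points passed the test, the black line is 0, and the dashed line is the median of all genes tested. *Ppp1r15a* lies far to the right of all other points, at 2.35 and 2.38, and most other filled points lie below 0.

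In bulk RNA, a change in the number of cells of a type and a change in RNA per cell cannot be told apart, so markers of CLPs and of other cells were read beside these results. The 9 CLP markers were present in every group, with a summed level of 6365 to 8949 TPM in WT, 7500 to 7754 TPM in ∆*Firre*, and 8966 to 9743 TPM in rescue, most of it from *Dntt*. In both comparisons with rescue 2 of the 9 were called higher, *Ly6d* and *Rag1*, and 2 lower, *Kit* and *Cd34*. *Ly6d*, which marks CLPs turned toward the B lineage, went from a mean of 485 TPM in ∆*Firre* to 1258 TPM in rescue, *Rag1* from 191 to 312 TPM, *Kit* from 75.1 to 53.4 TPM, and *Cd34* from 221 to 180 TPM. All 6 markers of basophils and mast cells were called lower in rescue in both comparisons, with sums of 1043 to 8932, 2908 to 4272, and 64.1 to 142 TPM, and none was at 0 in all rescue libraries. Of 7 B cell markers 4 were called higher and 3 lower in each comparison with rescue. All 7 summed to 13387 to 17812, 21280 to 37583, and 3175 to 5341 TPM, and the 5 that are not immunoglobulin genes to 147 to 286, 205 to 258, and 460 to 808 TPM, although *Ms4a1*, 1 of these 5, went from a mean of 2.71 to 0.309 TPM. Of 6 plasma cell markers 2 were called higher and 3 lower against ∆*Firre*, and their sum was 872 to 1636, 1614 to 3412, and 306 to 528 TPM. Without *Jchain* it was 250 to 340, 246 to 315, and 278 to 443 TPM. *Jchain*, the joining chain of secreted antibodies, went from a mean of 2313 to 70.4 TPM. Of 5 NK cell markers, 4 were called lower in rescue against ∆*Firre* (393 to 618 against 228 to 283 TPM), and of 7 ILC2 markers 4 were tested and 3 of these were called lower. The 3 not tested were at 0 in rescue and at 0 to 1.63 TPM in the other libraries. Of 4 plasmacytoid dendritic cell markers tested, 1 was called higher and 2 lower against ∆*Firre*, and 1 lower against WT. Among 3 T cell and 6 neutrophil markers tested, 1 each was called lower in both comparisons with rescue. Of 4 erythroid markers none was called against ∆*Firre* and 1 was called higher against WT. Neutrophil sums were 284 to 1240, 178 to 1550, and 129 to 1422 TPM, with rescue mouse 1 at 1422 TPM. The 4 eosinophil markers found summed to 21.9 to 113 TPM in WT and 49.0 to 179 TPM in ∆*Firre*. In rescue mice 1 to 4 they summed to 185, 132, 3.84, and 6.50 TPM. Rescue mice 3 and 4, the highest of their group in *Phgdh* and *Atf4*, were thus the lowest in these markers, but the other groups differed. WT mouse 8, the highest of WT in both genes, was at 74.9 TPM, above mice 10 and 11 at 27.2 and 21.9 TPM. ∆*Firre* mouse 12, the lowest of its group in these markers, was lowest in *Atf4* and highest in *Phgdh*. WT mouse 6, with the highest basophil and mast cell sum at 8932 TPM, was also the library with the most *Chac1*. The part of these cell types in the values of *Chac1*, *Atf4*, *Phgdh*, *Shmt2*, *Ppp1r15a*, or *Dnajc3* was not tested.

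Within groups, correlations between the members ran both ways. Over the 36 pairs of the 9 members tested, the Pearson correlation of deviations from the group means over 12 libraries had a median of -0.031, and 16 were above 0. *Phgdh* and *Shmt2* had the highest value, 0.78, and *Atf4* with *Phgdh* had 0.69, while *Atf4* with *Ddit3* had -0.71 and *Asns* with *Sesn2* had -0.76. These are descriptions of 12 libraries that share their depth and composition within a library. Such correlations were not taken over pairs of all genes tested, and *Trib3*, *Sesn2*, and *Asns* were low in TPM. *Atf4* varied most in rescue (SD 60.8 TPM, against 17.95 in WT and 17.2 in ∆*Firre*), so its correlations weigh the rescue mice most. The genes whose deviations were most like those of *Atf4* by the same measure were *Ppfia4* (0.96, mean 12.9 TPM), *Tap1* (0.96, mean 106 TPM), and *Capns2* (0.95, mean 2.37 TPM). They were picked as the highest of all genes tested, and whether chance alone gives such values was not tested.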

How the data were processed

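Poly(A)+ RNA-seq libraries of sorted CLPs were made and sequenced by the authors as paired-end reads, trimmed (cutadapt), mapped to mm10 with TopHat2 2.1.1, and counted per gene with featureCounts, per the paper and the submitters' processing notes. The deposited values are TPM, made by the authors from reads and gene length. Strand setting, multi-mapping, and gene length are not given in the sources used here. Groups came from the sample titles. All 12 columns of values matched a sample. Symbols were joined by Ensembl ID for 32799 of 47643 genes, with older symbols updated by RefSeq synonyms (GRCm38.p6), which also gave positions and promoters.

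Values were set to log2(TPM + 1). The 14479 genes whose TPM averaged 1 or more entered limma 3.58.1 (R 4.3.3, lmFit, eBayes with trend), 3 groups in one fit, with two-sided p adjusted by Benjamini-Hochberg and called at 0.1. With 4 mice per group, p-values measure the spread between mice. Whole reads were recovered from TPM steps (99.978% of values above 0 whole, within 0.01 reads plus a relative 3e-07), and limma-voom on them called 4113 genes in rescue against ∆*Firre*. The libraries carry no molecular identifiers, so limits from reads cover counting error only. The fit was tested on simulated data. Python 3.11.15, numpy 2.4.6, and pandas 2.3.3 were used.

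Alternatives were no filter, a filter at a mean TPM of 5, a pseudocount of 0.1 or 5, rescaling by the median ratio, quantile normalization, rescaling without *Firre*, immunoglobulin, ribosomal protein, and mitochondrially encoded genes, only the groups compared, no trend, a robust trend, an adjusted p of 0.05, an empirical null from the central 75% of statistics, mouse number as a block, library number range as a term, correction for exon GC content (splines with 4 degrees of freedom, 90.4% of genes tested), limma-voom, and each library left out in turn. Named were all 10 members, *Firre*, the called genes and the highest gene of each pathway list, and the 3 genes most like *Atf4*. Members and lists were chosen with earlier results of these data known. Pathway and marker lists came from general knowledge of the response and of marrow cells.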

Additional observations from a re-analysis of the deposited data

Results flagged for a closer look

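Within each group of 4 libraries, the highest or lowest value on the log2(TPM + 1) scale was compared with the others by Dixon's gap criterion at its 95% critical value for the 10 members, *Firre*, and the pathway genes called in rescue. Of 112 such sets 7 were picked out, where chance alone picks out about 1 in 20. *Phgdh* in ∆*Firre* mouse 9 was at 7.26, that is 153 TPM against 204 to 211 TPM in the other 3 mice. *Eif2s3y* was high in WT mouse 10 (6.93) and low in ∆*Firre* mouse 8 (6.46). *Hspd1* (8.49) and *Pck2* (6.44) were low in rescue mouse 2, where *Pck2* was at 85.9 TPM against 129 to 132 TPM in the other rescue mice. *Lars* was high in WT mouse 8 (6.99), and *Vars* was low in WT mouse 6 (6.71).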

How the results depend on the processing

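No alternative called a member in ∆*Firre* against WT. In rescue against ∆*Firre*, where 2 members were called, 1 was called with no filter, only the 2 groups in the fit, no trend, an adjusted p of 0.05, or library number range as a term, 0 with the empirical null or the GC correction, 3 with the median ratio, and 4 with limma-voom on recovered reads. With each library left out, the count of members ran from 0 to 2. Over all genes, the alternatives that called 1 member called 2682 to 3733 genes. The GC correction called 2001 of 13086 genes, the median ratio 3763 of 14479, and limma-voom 4113 of 14478. The setting reported called 4043 of 14479. In rescue against WT, where 0 were called, 1 was called with the median ratio, quantile normalization, rescaling without *Firre*, immunoglobulin, ribosomal protein, and mitochondrially encoded genes, or the GC correction, and 3 with limma-voom. With each library left out it was 0 to 1. Over all genes the median ratio called 2550, quantile normalization 2418, rescaling without the named gene groups 2770, the GC correction 2434, and limma-voom 2699. The setting reported called 3512 there. Of the pathway lists, 22 genes were called in rescue against ∆*Firre* and 20 against WT. The GC correction gave 10 and 11, the empirical null 0 and 0, and an adjusted p of 0.05 gave 13 against WT. Calls over all genes also fell with the GC correction, from 4043 to 2001 against ∆*Firre* and from 3512 to 2434 against WT. An adjusted p of 0.05 left 2346 of them against WT. The empirical null called no gene of the whole table in either comparison with rescue, so it also ended the call of *Ppp1r15a* (adjusted p of 0.864 and 0.690), whose call no other alternative ended.

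Signs turned for some members and for *Eif2s1* and *Ppp1r15a*. Quantile normalization gave 0.64 for *Trib3* and 0.29 for *Sesn2* in rescue against ∆*Firre*. In rescue against WT, the median ratio, quantile normalization, rescaling without the named gene groups, and limma-voom gave 0.12, 0.27, 0.039, and 0.13 for *Asns*, and 0.097, 0.033, 0.0056, and 0.087 for *Psat1*. The GC correction gave -0.034 for *Trib3* and -0.020 for *Shmt2* there, and 0.052 for *Eif2s1* in rescue against ∆*Firre*. With each library left out, log2 fold changes in ∆*Firre* against WT ran from -0.072 to 0.60 for *Trib3*, -0.16 to 0.22 for *Mthfd2*, and -0.083 to 0.25 for *Ppp1r15a*. In rescue against ∆*Firre* they ran from -0.39 to 0.32 for *Trib3*, -0.052 to 0.087 for *Psat1*, and -0.39 to 0.13 for *Sesn2*. In rescue against WT they ran from -0.15 to 0.19 for *Ddit3*, -0.19 to 0.64 for *Trib3*, and -0.33 to 0.26 for *Asns*. The cause of these shifts was not tested.

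WT and ∆*Firre* share mouse numbers 8 and 11, whose deviations correlated at -0.033 and -0.041, so the numbers gave no sign of pairing. With the number as a block, 0 members and 3 genes were called, as without it.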
